A study of Mus musculus with 5 samples.

Results

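The subject is a set of 10 genes that the DNA damage regulator p53 switches on to halt the cell cycle or to restrain its own activity and growth signalling: Cdkn1a, Mdm2, Ccng1, Phlda3, Zmat3, Btg2, Plk2, Sesn1, Sesn2 and Trp53inp1. They were read through every probe set that the platform annotation assigned to exactly 1 of these symbols, which gave 19 probe sets of 22690 on the array. A probe set is a group of short array probes against 1 transcript. RNA came from endothelial cells, the lining of blood vessels, out of the thymus of female C57BL/6J mice aged 6 to 8 weeks. The irradiated group held 2 arrays (day 4): mice received a sublethal whole-body dose of 550 cGy and were sampled at day 4. The untreated group held 3 arrays (day 0). Blood cells were first depleted magnetically through CD45, cells that carried VE-cadherin but neither CD45 nor EpCAM were then sorted, and cells of several mice were pooled. The labels called the irradiated cells CD45- thymic stromal cells and the untreated ones thymic endothelial cells, while the stated sort was the same.

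p53 is a transcription factor that is kept scarce in unstressed cells and accumulates when DNA is broken, as it is by ionizing radiation. It then binds response elements near its target genes and raises their transcription. Some of its targets stop cells from dividing, and others, Mdm2 above all, lower p53 again, so that the response can end. Endothelial cells of the thymus line the route by which progenitors enter the organ and supply signals to its epithelium.

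Values were deposited as log2 units after GCRMA, a method that corrects background, normalizes arrays and summarizes probes. The array medians lay between 5.26 and 5.30. Arrays correlated across tested probe sets with r of 0.984 within day 4, 0.989 to 0.992 within day 0 and 0.967 to 0.978 between the groups, which is a description, since probe sets are not replicates. The second principal component, with 20.3% of the variance, set the 2 day 4 arrays apart. Of 16 endothelial markers tested, Erg read 4.36 to 4.68, below the array medians, and the others, among them Cdh5 (VE-cadherin) and Pecam1, read 7.95 or more on every array. Of the 16, 0 were called by limma and 1 had an unadjusted p under 0.05, against 20.1% of all 8940 genes, each read through its brightest probe set. Of the genes behind the sort, Cdh5 averaged 11.39 at day 4 and 11.57 at day 0, Epcam 6.42 at day 4 and 6.90 at day 0, and Ptprc, which encodes CD45, 6.53 at day 4 and 6.52 at day 0. Markers of other cells did move. Of 10 thymocyte markers 5 fell and 0 rose, Rag1 and Satb1 leading, and 8 had an unadjusted limma p under 0.05. Of all genes, 0.794% were called lower and 0.884% higher. The mean log2 level of thymocyte markers was 4.24 and 4.12 on day 4 arrays against 5.69 to 6.49 on day 0 arrays. Of 15 macrophage and myeloid markers 3 rose, Cd163 and Fcgr1 leading, and S100a8 and S100a9 fell. All 15 had an unadjusted limma p under 0.05, and 13 had a positive change. That list averaged 7.29 and 7.16 on the day 4 arrays, and between 5.70 and 6.58 on the untreated ones. The B cell markers Ms4a1 and Cd79b and the erythroid gene Alas2 fell, and their day 4 values were all below 4. Rag1, S100a8 and S100a9 also read below 4 on both day 4 arrays, as did the called thymocyte markers Cd8b1 and Ccr9. Cd163 and the uncalled myeloid marker Vsig4 read below 4 on all day 0 arrays. These genes passed the level filter through 1 group only, so the size of their changes is uncertain. Alas2 was called whichever array was left out; Rag1, Satb1, Cd163, Fcgr1, S100a8, S100a9, Ms4a1 and Cd79b each went uncalled or untested without at least 1 array (limma adjusted p up to 0.158). Of 11 thymic epithelial markers 0 were called (4 at an unadjusted limma p under 0.05), with mean levels of 6.65 and 5.75 at day 4 against 6.65 to 7.23 at day 0. Of 10 fibroblast and 10 pericyte or smooth muscle markers 0 were called, each list with 1 unadjusted limma p under 0.05. The thymocyte markers Ptcra and Rag2, the epithelial gene Foxn1 and the myeloid gene Itgam did not pass the level filter. Neither did the B cell markers Cd79a and Pax5, nor the erythroid markers Hba-a1, Klf1 and Slc4a1. The B cell list thus rested on 2 tested genes and the erythroid list on 1. The 3' minus 5' log2 signal of the actin control, a sign of RNA quality, stood at 1.35 and 1.39 after irradiation, and at 1.59, 1.65 and 1.43 in untreated mice. The part of these shifts in the changes described next was not tested. In sorted bulk RNA, a different mixture of cells and a different level per cell cannot be told apart.

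At day 4 after irradiation most of the arrest and feedback genes were higher. Of the 10 genes, 7 rose: Phlda3, Ccng1, Sesn2, Trp53inp1, Zmat3, Mdm2 and Cdkn1a, by 2.05-fold to 5.25-fold through the brightest probe set of each. None was called lower, and Btg2, Plk2 and Sesn1 did not pass the test. A gene or probe set was called if its limma p, adjusted by Benjamini-Hochberg over all 15065 tested probe sets, was under 0.05. Of all 8940 genes, each read through its brightest probe set, 0.884% were called higher and 0.794% lower. At the level of probe sets, 18 of the 19 passed the level filter (a log2 value above 4 on at least 2 arrays) and 11 of these 18 rose, against 0.717% of all tested probe sets called higher and 0.677% called lower. The median log2 change was 1.36 over the 18 member probe sets and -0.0044 over all tested probe sets. Both day 4 arrays lay above all day 0 arrays for 14 of the 18, as for 18.9% of all tested probe sets, and below all of them for 2, both of Sesn1, as for 20.7% of all.

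**Figure D1:**
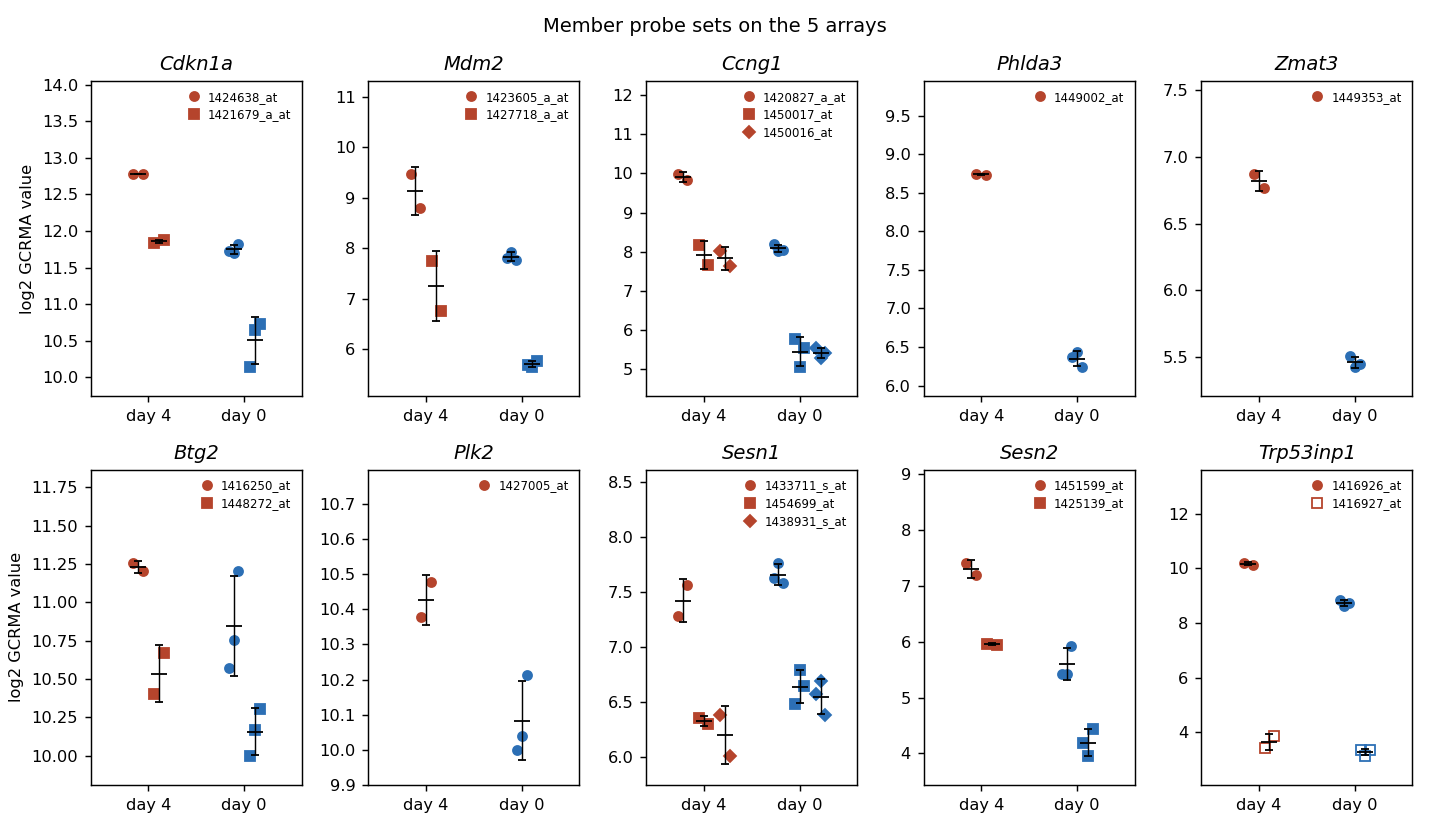
Log2 GCRMA value (vertical axis, scaled per gene) of each member probe set on the 2 day 4 arrays and the 3 day 0 arrays; points are arrays, bars the mean and SD, and open symbols a probe set below the level filter. Day 4 points stand clear of day 0 points for Cdkn1a, Ccng1, Phlda3, Zmat3, Sesn2 and Mdm2, and overlap for the brighter Btg2 probe set and 1 Sesn1 probe set.

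**Figure D2:**
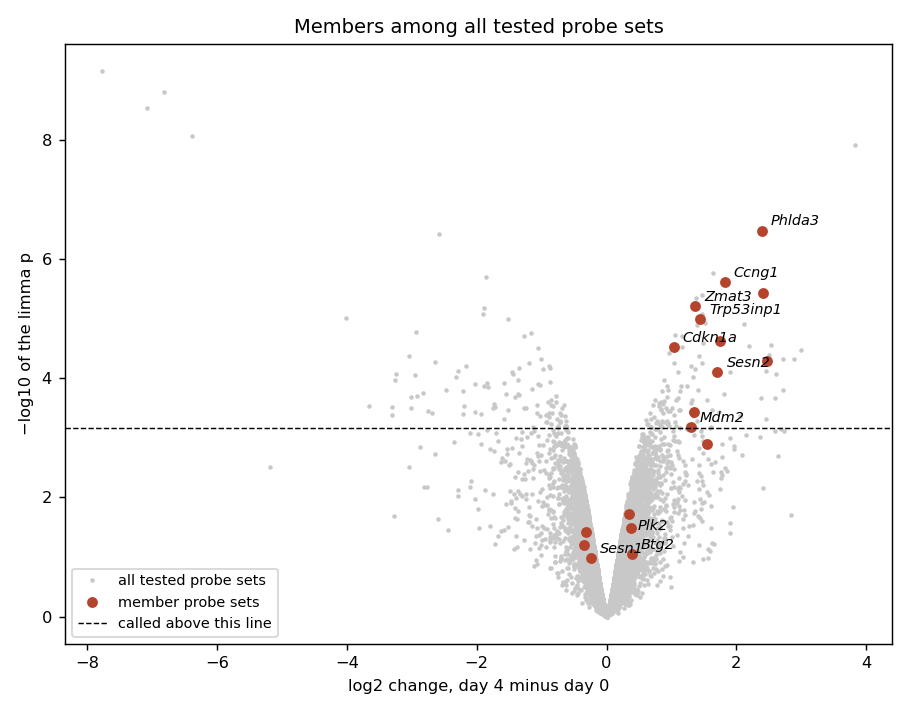
Log2 change, day 4 minus day 0 (horizontal axis), against −log10 of the limma p (vertical axis) of the 15065 tested probe sets in grey and the 18 tested member probe sets in red, with each gene named at its brightest probe set. The 11 called member probe sets lie above the dashed line on the right, while those of Btg2, Plk2 and Sesn1 lie low near 0.

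Among the genes that hold the cell cycle, Cdkn1a encodes p21, the inhibitor of cyclin-dependent kinases through which p53 blocks entry into DNA synthesis. Its brighter probe set, 1424638_at, read 12.78 and 12.78 on the day 4 arrays, against 11.73, 11.70 and 11.82 on the day 0 arrays. The groups did not overlap, and the day 4 arrays agreed to within an SD of 0.0017. The log2 change was 1.03 ± 0.094 (SE), a 2.05-fold rise (limma adjusted p = 0.0132). The second probe set, 1421679_a_at, read 11.84 and 11.87 at day 4, against 10.14, 10.65 and 10.73 at day 0, a 2.55-fold rise (limma adjusted p = 0.0380). Both probe sets rose, and the rise was the smallest of the 7 called genes on the brighter one. The brighter probe set kept its size (1.03) but not its call when day 4 replicate 1 was left out (limma adjusted p = 0.0956). Leaving out day 0 replicate 3 also ended the call (1.07, adjusted p = 0.0585). The dimmer one was called in the absence of day 0 replicate 1 but of no other single array, with log2 changes of 1.17 to 1.46 and a highest adjusted p of 0.154.

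Ccng1 encodes cyclin G1, an unusual cyclin that binds a phosphatase subunit and acts with Mdm2 on p53. It had 3 probe sets, and all rose. The brightest, 1420827_a_at, read 9.99 and 9.82 at day 4, against 8.19, 8.03 and 8.04 at day 0. Its log2 change of 1.82 ± 0.11 (SE) was a 3.53-fold rise (limma adjusted p = 0.00367). The other probe sets had lower levels and larger changes. Values of 1450017_at were 8.16 and 7.67 at day 4, against 5.76, 5.05 and 5.54 at day 0, a 5.53-fold rise. Values of 1450016_at were 8.03 and 7.63 at day 4, against 5.55, 5.27 and 5.41 at day 0, a 5.34-fold rise. On all 3, day 4 replicate 1 was the higher of the irradiated arrays, and the gap between the groups was at least 1.63 log2 units. The calls of 1420827_a_at and 1450016_at survived the loss of any single array, with limma adjusted p values up to 0.0468 and 0.0402. That of 1450017_at did not survive the loss of day 4 replicate 1 (2.22, adjusted p = 0.123), nor that of day 0 replicate 3 (2.51, adjusted p = 0.0794).

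Btg2 and Plk2 are also induced within minutes to hours by growth signals, as immediate-early genes. Btg2 encodes an antiproliferative partner of the mRNA deadenylation complex, and Plk2 a polo-like kinase of centriole duplication and checkpoint control. Btg2 read 11.26 and 11.20 at day 4, against 10.57, 10.75 and 11.21 at day 0, on 1416250_at. Day 0 replicate 3 reached the day 4 values, so the groups overlapped. The log2 change of 0.39 had a 95% interval from -0.082 to 0.86 (limma adjusted p = 0.325). On 1448272_at Btg2 read 10.40 and 10.67 at day 4, against 9.998, 10.16 and 10.30 at day 0, a change of 0.38 (95% interval 0.045 to 0.71, adjusted p = 0.215). The groups were 0.098 log2 units apart there. Plk2 read 10.38 and 10.48 at day 4, against 10, 10.04 and 10.21 at day 0, with a change of 0.34 (95% interval 0.079 to 0.61, limma adjusted p = 0.173). The Plk2 groups did not overlap either, at 0.16 log2 units apart. Of 30 immediate-early genes, 0 were called, 9 had an unadjusted limma p under 0.05, against 20.1% of all genes, and the list's median change was 0.046; its largest value was 1.64, of Fosl1 (adjusted p = 0.0943), an AP-1 subunit gene.

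Mdm2 encodes the ubiquitin ligase that marks p53 for destruction, the central negative feedback of the pathway. On 1423605_a_at it read 9.47 and 8.79 at day 4, against 7.81, 7.93 and 7.75 at day 0. Both irradiated arrays were above every untreated one, but they differed from each other by more than the untreated arrays did, with an SD of 0.48 at day 4 against 0.089 at day 0. The log2 change of 1.30 ± 0.20 (SE) was a 2.46-fold rise that passed narrowly (limma adjusted p = 0.0486). The other probe set, 1427718_a_at, read 7.75 and 6.76 at day 4, against 5.69, 5.64 and 5.76 at day 0, a larger change of 1.55 that did not pass (adjusted p = 0.0644). The call on the first probe set was lost after median centring (limma adjusted p = 0.0537), with array weights (adjusted p = 0.0760) and with day 4 replicate 1 left out (0.96). It was also lost without any 1 of the day 0 arrays, at 1.29, 1.35 and 1.26 with replicate 1, 2 or 3 left out and adjusted p values of 0.115, 0.117 and 0.158. Without day 4 replicate 2 both probe sets passed, at 1.64 (adjusted p = 0.0286) and 2.05 (adjusted p = 0.0219). Mdm4, the paralog that holds p53 inactive without degrading it, read 6.73 and 7.30 at day 4, against 6.84, 6.98 and 6.80 at day 0. Its change of 0.14 did not pass (limma adjusted p = 0.693) and had the opposite sign, -0.14, without day 4 replicate 2, and its second probe set gave 0.44 (adjusted p = 0.284).

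Phlda3 encodes a small pleckstrin homology protein that competes with Akt for membrane lipids and so dampens survival signalling. It had the largest rise of the 10 genes through their brightest probe sets. Its probe set read 8.75 and 8.74 at day 4, against 6.37, 6.44 and 6.24 at day 0. The group values were 2.30 log2 units apart at their nearest, and the change of 2.39 ± 0.10 (SE) was a 5.25-fold rise (limma adjusted p = 0.000830). By p it ranked 6 of the 15065 tested probe sets. It remained called without any single array, at 2.34 to 2.44 and adjusted p values up to 0.0321.

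Trp53inp1 encodes a nuclear protein that cooperates with p53 and, in the cytoplasm, takes part in autophagy. It read 10.21 and 10.14 at day 4, against 8.85, 8.61 and 8.72 at day 0, on 1416926_at. The rise was 2.73-fold (log2 change 1.45 ± 0.11 SE, limma adjusted p = 0.00771) with no overlap of the groups. Its second probe set, 1416927_at, read 3.44 and 3.86 at day 4, against 3.34, 3.13 and 3.34 at day 0. That probe set lay below the level filter on every array and was not tested, so it gives no second measure of the gene. Zmat3 encodes a zinc finger protein that binds RNA. It read 6.87 and 6.77 at day 4, against 5.51, 5.42 and 5.45 at day 0, a 2.57-fold rise (1.36 ± 0.094 SE, limma adjusted p = 0.00662). Its day 0 arrays spread by an SD of 0.043, and the groups were 1.26 log2 units apart. Without day 4 replicate 1 neither gene was called (Trp53inp1 1.41, adjusted p = 0.0829; Zmat3 1.31, adjusted p = 0.0647), and Trp53inp1 narrowly failed without day 0 replicate 3 (1.44, adjusted p = 0.0509).

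The sestrins are stress proteins that restrain the growth kinase complex mTORC1 and protect against oxidation, and the 2 sestrins among the 10 genes differed in sign. Sesn2 read 7.41 and 7.19 at day 4, against 5.43, 5.43 and 5.93 at day 0, on 1451599_at, a 3.27-fold rise (log2 change 1.71 ± 0.18 SE, limma adjusted p = 0.0194). On 1425139_at it read 5.96 and 5.94 at day 4, against 4.19, 3.96 and 4.43 at day 0, a 3.38-fold rise (adjusted p = 0.0121). Day 0 replicate 3 was the highest untreated array on both, and still lay at least 1.26 log2 units below the lower irradiated array. With array weights the call of 1451599_at was lost (1.74, limma adjusted p = 0.0560) and that of 1425139_at was kept (1.80, adjusted p = 0.0355). Without day 4 replicate 1 neither Sesn2 probe set was called (1.60, adjusted p = 0.131, and 1.74, adjusted p = 0.110), and 1451599_at also failed without day 4 replicate 2 (1.82, adjusted p = 0.0593).

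Sesn1 was not higher on any of its 3 probe sets. On the brightest, 1433711_s_at, it read 7.28 and 7.56 at day 4, against 7.62, 7.76 and 7.58 at day 0. On 1454699_at the values were 6.35 and 6.29 at day 4, against 6.48, 6.79 and 6.64 at day 0. On 1438931_s_at they were 6.38 and 6.01 at day 4, against 6.57, 6.69 and 6.38 at day 0. The irradiated arrays were below all untreated ones on the first 2 and overlapped with them on the last. Changes were -0.24 (95% interval -0.54 to 0.067), -0.31 (-0.60 to -0.023) and -0.35 (-0.73 to 0.025), with limma adjusted p values of 0.352, 0.230 and 0.280. None was called, and the highest upper bound, 0.067, is well short of the Sesn2 changes. The third paralog, Sesn3, changed by -0.22 (limma adjusted p = 0.571) and is not one of the 10 genes. The difference between Sesn2 and Sesn1 was seen in these values and was not tested as such.

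**Figure D3:**
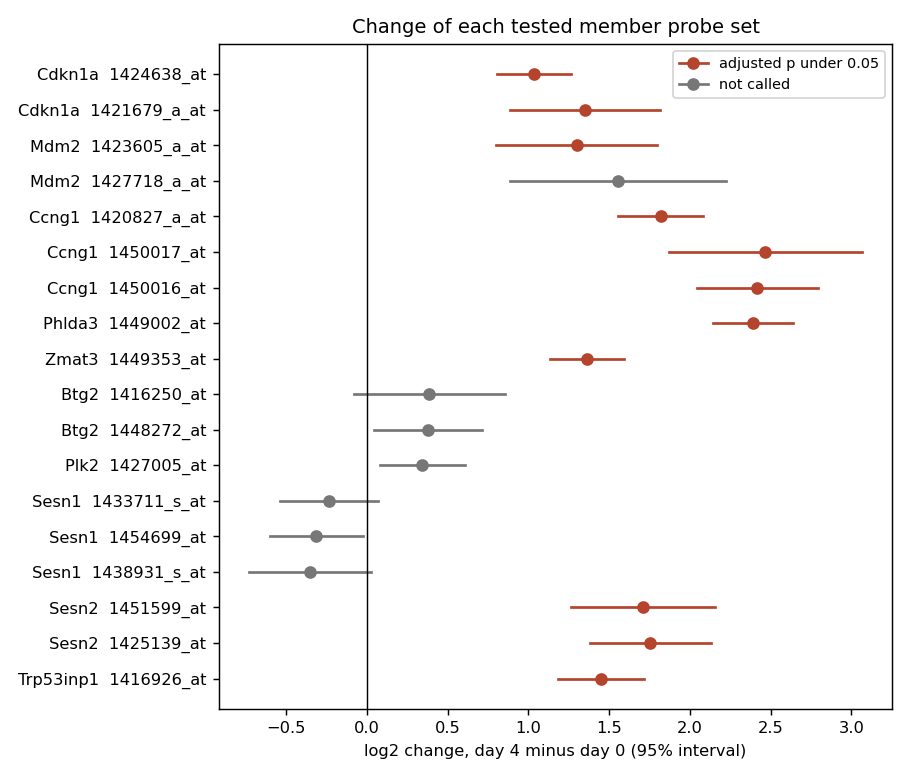
Log2 change, day 4 minus day 0 (horizontal axis), with its 95% limma interval for each of the 18 tested member probe sets; red marks an adjusted p under 0.05. The lowest bound of the 11 red intervals is 0.80, and the 3 Sesn1 estimates lie below 0.

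Promoter sequence was examined because the members are known for p53 response elements and 7 moved together. A response element is made of a pair of copies of a half-site of 10 bases. RefSeq windows (GRCm38.p6) of 250 bases before to 50 after a transcript start were held for 8 of the 10 genes, 10 windows in all; Zmat3 and Trp53inp1 had none. The p53 half-site consensus, which reads the same on both strands, was searched on its own and as a pair with a spacer of 0 to 13 bases. An exact half-site was present in 8.36% of all 32851 windows, and in at least 1 window of 9.55% of all 27025 genes. Of the 8 genes, 4 held one: Cdkn1a, Ccng1, Mdm2 and Sesn1. A pair with at most 1 mismatch was present in 1.09% of all windows, and with 0 mismatches in 0.0731%. The stretches of the 4 genes follow, 5′ to 3′ on the gene's strand, with capitals for the bases of matched half-sites.
Cdkn1a, upstream start, chr17:29090886-29090967, plus strand: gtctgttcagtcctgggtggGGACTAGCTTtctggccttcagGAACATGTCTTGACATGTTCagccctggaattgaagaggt
Ccng1, chr11:40755442-40755501, minus strand: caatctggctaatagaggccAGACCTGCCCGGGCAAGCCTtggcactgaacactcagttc
Mdm2, chr10:117710915-117710964, minus strand: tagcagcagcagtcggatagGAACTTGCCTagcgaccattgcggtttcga
Sesn1, downstream start, chr10:41887233-41887310, plus strand: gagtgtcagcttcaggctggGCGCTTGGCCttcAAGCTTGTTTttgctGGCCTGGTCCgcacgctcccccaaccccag

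In the Cdkn1a window of the more upstream of 2 annotated starts, an exact pair began 73 bases before the start with a spacer of 12 bases, and its second half-site was followed with no spacer by a half-site with 1 mismatch. The window of the other Cdkn1a start held no exact half-site. In Ccng1 a pair with no spacer and 1 mismatch began 195 bases before the start. Mdm2 held a single exact half-site 186 bases before the start. In Sesn1, which was lower at day 4 without being called, the pairs had 2 mismatches, and 10.1% of all windows held a pair with at most 2. No exact half-site was found in the windows of Phlda3, Sesn2, Btg2 or Plk2, of which Phlda3 and Sesn2 rose. These matches describe letters in short windows, and binding was not measured.

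Other genes of the pathway were read through their brightest probe sets. Of 32 tested p53 targets outside the 10, 8 rose and 0 fell, against 0.884% and 0.794% of all genes, and 18 had an unadjusted limma p under 0.05, against 20.1% of all genes. The list was drawn up with earlier results of these arrays known. Their median log2 change was 0.36. Both day 4 arrays were above all day 0 arrays for 19 of the 32, and below all of them for 2. The shares of all tested probe sets were 18.9% and 20.7%. The largest rises were those of Aen, a nuclease gene of p53-induced cell death, and Ephx1, which encodes microsomal epoxide hydrolase. Aen read 7.44 and 7.55 at day 4, against 5.46, 5.91 and 6.03 at day 0, and Ephx1 read 11.31 and 11.20 at day 4, against 9.63, 9.57 and 9.61 at day 0. These were rises of 3.24-fold (limma adjusted p = 0.0194) and 3.13-fold (adjusted p = 0.00329), and a second tested probe set of Aen gave 1.43 on the log2 scale without passing (adjusted p = 0.0951). The remaining 6 called genes were Pmaip1, Dcxr, Gtse1, Rps27l, Ckap2 and Ei24. In place of 8, leaving out day 4 replicate 1 or day 0 replicate 3 gave 1 called gene, and leaving out day 4 replicate 2 gave 4. The count was 6 when day 0 replicate 1 was left out, and 5 for day 0 replicate 2. Aen itself was not called in 3 of these 5 fits (1.64 to 1.81, limma adjusted p of 0.125 with day 4 replicate 1 left out, 0.0632 with day 4 replicate 2 and 0.0577 with day 0 replicate 3).

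**Figure D4:**
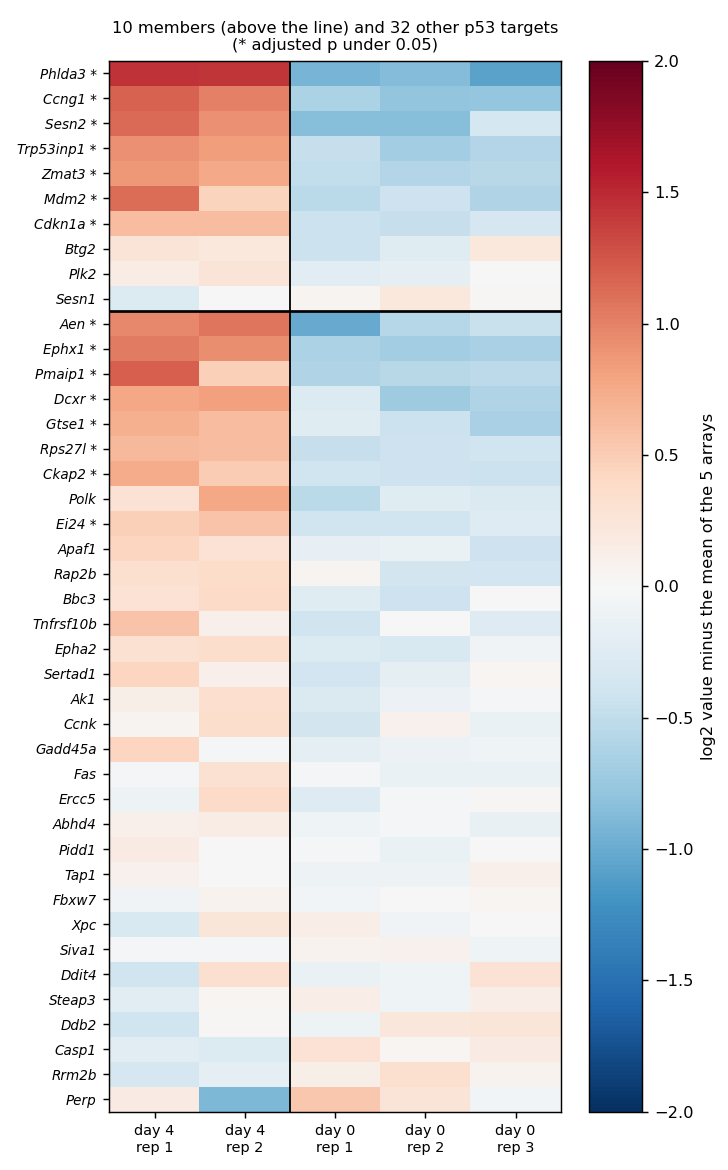
Log2 value minus the gene's mean over the 5 arrays (colour) for the 10 members, above the line, and 32 other p53 targets, below it, each ordered by change; columns are the 2 day 4 and 3 day 0 arrays, and asterisks mark genes called higher. The 7 called members and 8 called other targets are red in both day 4 columns and blue in all 3 day 0 columns.

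Genes that act on p53 were set beside its targets. Of 18 tested p53 regulators, kinases, ligases and cofactors among them, 0 were called by limma. Of the 18, 4 had an unadjusted limma p under 0.05, a share near the 20.1% of all genes. The list's median change was 0.083, and changes ran from -1.41 (Trp63, limma adjusted p = 0.160) to 0.49. The next lowest was -0.46, of Chek2. Of 23 genes of Akt signalling and of the sestrin to mTORC1 arm, 0 were called and 3 had an unadjusted limma p under 0.05, against the same 20.1%. Their median was -0.028, but the list held activators and inhibitors of signalling together, so it gives no direction of signalling. Among 20 cyclins, kinases and Rb, E2F or DREAM genes on which p21 acts, 2 fell and 0 rose, with a median of -0.14. Of all genes, 0.794% were called lower and 0.884% higher. Of the 20, 5 had an unadjusted limma p under 0.05, against 20.1% of all genes. The 2 that fell were Ccna2, which encodes cyclin A2, and Cdk1, the mitotic kinase. Ccna2 read 4.76 and 4.18 at day 4, against 6.57, 6.12 and 5.98 at day 0 (3.37-fold lower, limma adjusted p = 0.0362). Its second probe set, also lower at -0.89, did not pass (adjusted p = 0.0988). Cdk1 read 4.55 and 4.30 at day 4, against 5.91, 5.42 and 5.66 at day 0 (2.36-fold lower, adjusted p = 0.0362). The thymocyte markers given above fell with them, and the part of thymocyte RNA in these falls was not tested. With 1 array left out, Ccna2 was called only in the absence of day 0 replicate 1 and Cdk1 only in that of day 0 replicate 2, with limma adjusted p values up to 0.112 and 0.137. Of 14 paralogs of the members, 1 fell and 0 rose, against the same shares of all genes, and 5 had an unadjusted limma p under 0.05. The paralog that fell was Plk4, the kinase that starts centriole duplication. It read 5.09 and 5.24 at day 4, against 6.01, 6.00 and 6.10 at day 0 (1.83-fold lower, limma adjusted p = 0.0238). With 1 array left out, Plk4 was called only in the absence of day 4 replicate 2 (-0.94 there, and -0.80 to -0.89 in the other fits, limma adjusted p up to 0.122).

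The 10 members were compared with the mean profile of their brightest probe sets, each centred on its own mean over the 5 arrays. Pearson's r with that profile was 0.955 to 0.998 for the 7 called genes, 0.916 for Plk2, 0.716 for Btg2 and -0.775 for Sesn1, all of which take part in the profile. Among 666 other genes whose range over the arrays was at least 1 log2 unit, 60 had an r of at least 0.95. The highest 5 were Rps27l (0.999), Ephx1 (0.998), Pvt1 (0.995), Ckap2 (0.994) and Rab7b (0.993). Of these, Rps27l, Ephx1 and Ckap2 were on the list of other p53 targets and among its called genes. That list was drawn up with earlier results of these arrays known, so the overlap is no independent evidence. Rps27l encodes a ribosomal protein S27 paralog and Ckap2 a spindle protein, Pvt1 is a long noncoding RNA next to Myc, and Rab7b encodes a small GTPase of endosomes. With 5 arrays in 2 groups, r reflects mainly the step between the groups and is a description.

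The 2 irradiated arrays were not alike, for these genes or for markers of cell types. Day 4 replicate 1 was above day 4 replicate 2 for 10 of the 11 called member probe sets and for 14 of the 18 tested ones, against 45.9% of all tested probe sets. The difference was widest for Mdm2, at 0.68 and 0.99 log2 units on its probe sets, and next for 1450017_at of Ccng1, while Phlda3 and Cdkn1a differed by at most 0.033. The counts of probe sets include several of the same gene, and differences as small as 0.0023 (1424638_at of Cdkn1a). Of the 8 called other p53 targets, 5 were higher on replicate 1. Thymic epithelial markers averaged 6.65 on day 4 replicate 1 and 5.75 on day 4 replicate 2, and fibroblast markers 8.20 and 7.75. Endothelial markers went the other way, with 10.31 on replicate 2 and a lower mean on replicate 1. The part of these marker differences in the member values was not tested. When day 4 replicate 1 was left out, Phlda3 and Ccng1 alone of the 10 genes were called. Leaving out day 4 replicate 2 also left 1 irradiated array, and 6 genes were then called. In both fits the lone array was assumed to vary like the day 0 arrays. Without day 0 replicate 3, 4 were called: Ccng1, Phlda3, Sesn2 and Zmat3. With day 0 replicate 1 or replicate 2 left out, 6 were called. The direction of all 10 genes was the same in each of these fits.

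**Figure D5:**
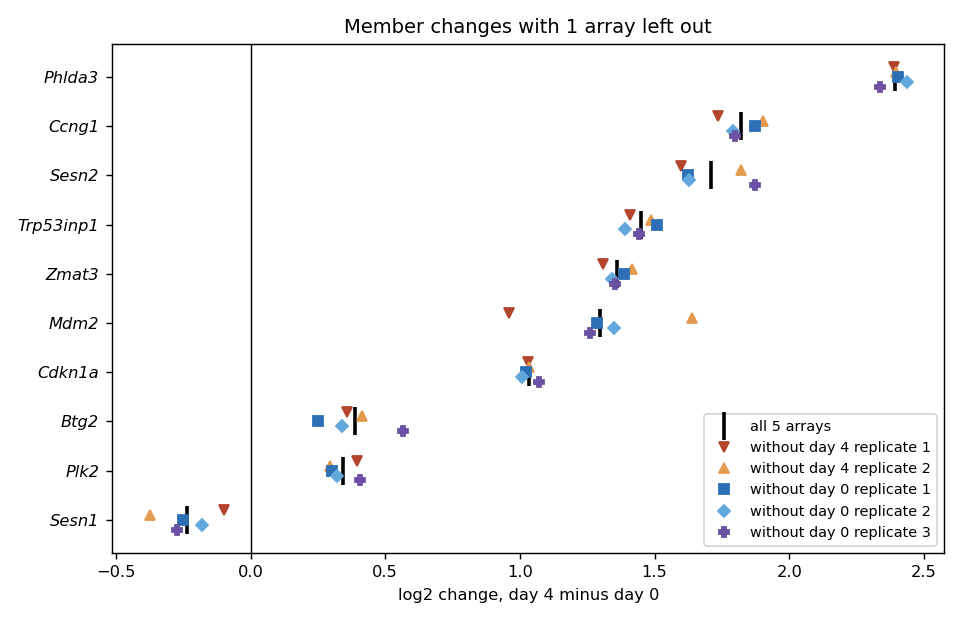
Log2 change, day 4 minus day 0 (horizontal axis), of the brightest probe set of each member over all 5 arrays (black bar) and with each array left out in turn (coloured symbols). Phlda3 stays between 2.34 and 2.44, Mdm2 runs from 0.96 to 1.64, and Sesn1 stays below 0.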

How the data were processed

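Gene expression was measured on single-colour Affymetrix mouse expression arrays, 2 of irradiated and 3 of untreated mice. The authors deposited log2 values per probe set made with GCRMA, a step named per the submitters' processing notes. Neither the version used nor joint normalization of the 5 arrays is stated there. GCRMA hides a change shared by most genes and spreads low values. The table gave no detection calls, and the number of arrays limits the precision.

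Of 22690 probe sets, 64 controls were left out. A single gene symbol was given for 20380, several for 691 and none for 1555. Probe sets with a log2 value above 4 on at least 2 arrays (15065) entered limma 3.58.1 (R 4.3.3; lmFit, then eBayes), two-sided, without covariates, with Benjamini-Hochberg adjustment over all probe sets tested. The fit left 3 residual and 3.09 prior degrees of freedom. An exact permutation test of 2 arrays against 3 cannot reach the threshold. A gene was read through its probe set with the highest mean (brightest). Each array was a pool, so p-values measure the spread between pools, which may be technical. Probe sets with the suffix s_at can match transcripts of several genes.

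Named genes were the 10 members, the gene of p53 itself (not analysed here), Mdm4, Cdh5, Pecam1, Epcam and Ptprc. To these came the 2 largest called rises and falls of each list, and the 5 genes most like the members' mean profile. Fosl1, Sesn3, Trp63, Chek2, Cd8b1, Ccr9, Vsig4 and the 6 other called targets were added after their values were seen. The members and lists were chosen with earlier results of these data known. The fit was tested on simulated data. Alternatives changed the normalization, filter, gene summary, variance model, weights, block, threshold and arrays. Figures used matplotlib 3.10.9 in Python 3.11.15.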

Additional observations from a re-analysis of the deposited data

How the results depend on the processing

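All 18 tested member probe sets kept their direction under every alternative that gave them a value. The number of genes among the 10 called was 7 under quantile normalization, both other level filters, 1 probe set or the mean of the probe sets per gene, an intensity trend with robust fitting, the replicate block and a threshold of 0.10; it was 6 after median centring, 5 with array weights and 4 at a threshold of 0.01, and 2 to 6 with an array left out. The 210 probe sets called became 53 with array weights, 23 at 0.01, 657 at 0.10 and 15 to 165 with an array left out. Of other p53 targets, 8 were called higher, 3 with array weights, 1 at 0.01 and 1 to 6 with an array left out. The replicate number as a block gave 401 probe sets, 7 members and 9 other targets. Same-numbered arrays deviated together with r of 0.20 and 0.084, but day 4 replicate 2 and day 0 replicate 3 had r of 0.14. Nothing in the labels says the number marks a shared batch. Uncalled genes changed sign: Ptprc (0.0049) to -0.015 after quantile normalization, -0.025 after median centring, and -0.15 without day 4 replicate 1, with -0.22 to 0.17 over the fits with an array left out. Over those fits Mdm4 (0.14) ranged from -0.14 to 0.43, Pecam1 (0.14) from -0.051 to 0.33 and Epcam (-0.48) from -1.23 to 0.27. The causes were not tested.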
